A study of Homo sapiens with 6 samples.

Results

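DNA replication and repair genes were examined in HepG2 cells, an established human liver cancer cell line, after knockdown of the long noncoding RNA LINC01977. The genes were the 148 of 29153 listed genes whose KEGG annotation, deposited with the counts, names DNA replication, mismatch repair, base excision repair, nucleotide excision repair, homologous recombination or the Fanconi anemia pathway and does not name Cell cycle. The rule used no measured value. It left out 12 genes of the 6 pathways that KEGG also lists under Cell cycle, namely the helicase subunits MCM2 to MCM7, the sliding clamp PCNA, RBX1, CDK7, CCNH and the checkpoint kinases ATM and ATR. Of the 148 genes, 113 belong to 1 of the 6 pathways and 35 to more than 1, of which 8 are in 5.

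The comparison was between 3 libraries of cells given a lentivirus with a control hairpin (sh-NC) and 3 of cells given a lentivirus with a hairpin against LINC01977 (sh-LINC01977, marked sh3 in the labels), all collected at 72 h. The methods of the study also describe selection of infected cells with puromycin, an antibiotic that kills cells without the vector. One hairpin in 1 cell line was sequenced, and the labels do not say whether the 3 libraries of a group came from separate cultures, so p-values measure the spread between these samples. Total counts were between 49929024 and 60441515, and the limit that a count of 0 allows (3 counts) lay between 0.0493 and 0.0608 CPM. LINC01977 itself had counts of 4, 0 and 16 in sh-NC and 0, 0 and 4 in sh-LINC01977 libraries, so a reduction was not detectable at this depth, and libraries were grouped by their labels. The study's own qRT-PCR measurement of knockdown is not analysed here. Hepatocyte and HepG2 markers were abundant in every library, with a summed level of 4026 to 4383 FPKM in sh-NC and 2716 to 2791 FPKM in sh-LINC01977 libraries, and 5 of the 6 (ALB, AFP, APOA1, TF and SERPINA1, but not TTR) fell, beside 8.07% of all tested genes. Mesenchymal markers summed to 0.255 FPKM or less in every library, and the blood markers PTPRC and HBB were at or near 0, with CD68 taking the blood list to between 9.28 and 12.6 FPKM in sh-NC and between 13.5 and 15.7 FPKM in sh-LINC01977 libraries. The part of these marker differences in the results on replication and repair genes was not tested.

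Cells copy their genome at replication forks, where DNA polymerase alpha with primase lays down short primers, replication factor C loads the sliding clamp, and polymerases delta and epsilon extend the strands while replication protein A covers exposed single strands. Repair pathways share much of this machinery. Base excision repair removes single damaged bases, nucleotide excision repair cuts out bulky lesions, mismatch repair corrects copying errors, homologous recombination mends broken chromosomes with an intact copy, and the Fanconi anemia pathway clears crosslinks between the strands. Many of these genes are transcribed most strongly in cells entering S phase, when E2F transcription factors are active.

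Knockdown of LINC01977 was accompanied by modest, mostly upward changes in a minority of these genes. Of the 148, 145 reached the filter of a mean of 0.5 FPKM over the 6 libraries and entered the quasi-likelihood test of edgeR, with adjustment over all 13452 tested genes. The remaining 3 (POLN, RPA4 and SYCP3) had at most 41 counts in any library. At an adjusted p under 0.05, 15 genes rose and 2 fell. These are 10.3% and 1.38% of the 145 genes, beside 7.05% higher and 8.07% lower among all tested genes. The genes that rose were ERCC5, POLA2, BLM, FANCD2, RPA2, EXO1, POLD3, MRE11, BRCA1, APEX2, CUL4B, FANCI, XRCC1, XPC and RFC3, and those that fell were DDB1 and RFC1. The changes were small, since the rises ran from 1.18-fold to 1.67-fold with a median of 1.28-fold. No gene passed a fold change of at least 2 together with an unadjusted p of at most 0.05, a rule that 2.6% of all tested genes passed. The upward count depended on the libraries and the settings used. It was 7 without the second sh-LINC01977 library, 8 without the third, and 8 without either the first or the second sh-NC library, whereas 2 genes fell in each of these cases. The share of all tested genes that rose was also lower in these cases, between 4.08% and 4.63%. The count was 9 without the filter on low values, where BLM, ERCC5, RFC3, RPA2, XPC and XRCC1 lost their calls, and 24 with DESeq2 or with limma on FPKM values. Beside these counts, 2.44% of all tested genes rose without the filter, 10.1% with DESeq2 and between 9.41% and 9.55% with limma. A gene that did not pass is not shown to be unchanged.

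The whole set leaned the same way. Its median log2 fold change was 0.065, with a range from -1.03 to 0.74, beside a median of -0.0010 over all tested genes. Values were positive for 91 genes and negative for 54, so that 62.8% were positive, beside 49.8% of all tested genes. The 3 libraries of one group lay wholly above those of the other for 48 genes. In 37 of them (25.5%) the sh-LINC01977 libraries were the higher, beside 18.8% of all tested genes, and in 11 (7.59%) they were the lower, beside 18.3%. All 17 genes past the test were among these 48. Typical expression was similar to that of other genes, with a median of 4.66 FPKM in sh-NC cells for the tested replication and repair genes and 4.09 FPKM for all tested genes. The most abundant was RAD23B, a partner of the damage sensor XPC, at 77.0 FPKM, and the least abundant of those tested was the DNA glycosylase NEIL1 at 0.451 FPKM. When libraries were scaled by their totals in place of TMM factors, the median of all tested genes shifted to 0.065 and that of the replication and repair genes to 0.13. Under that scaling 23 of them rose and 2 fell, beside 10.8% higher and 5.71% lower among all tested genes. FPKM values were not scaled by TMM factors either, and with limma the median of all tested genes was between 0.049 and 0.065. The limma results on single genes given below include that shift.

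**Figure D1:**
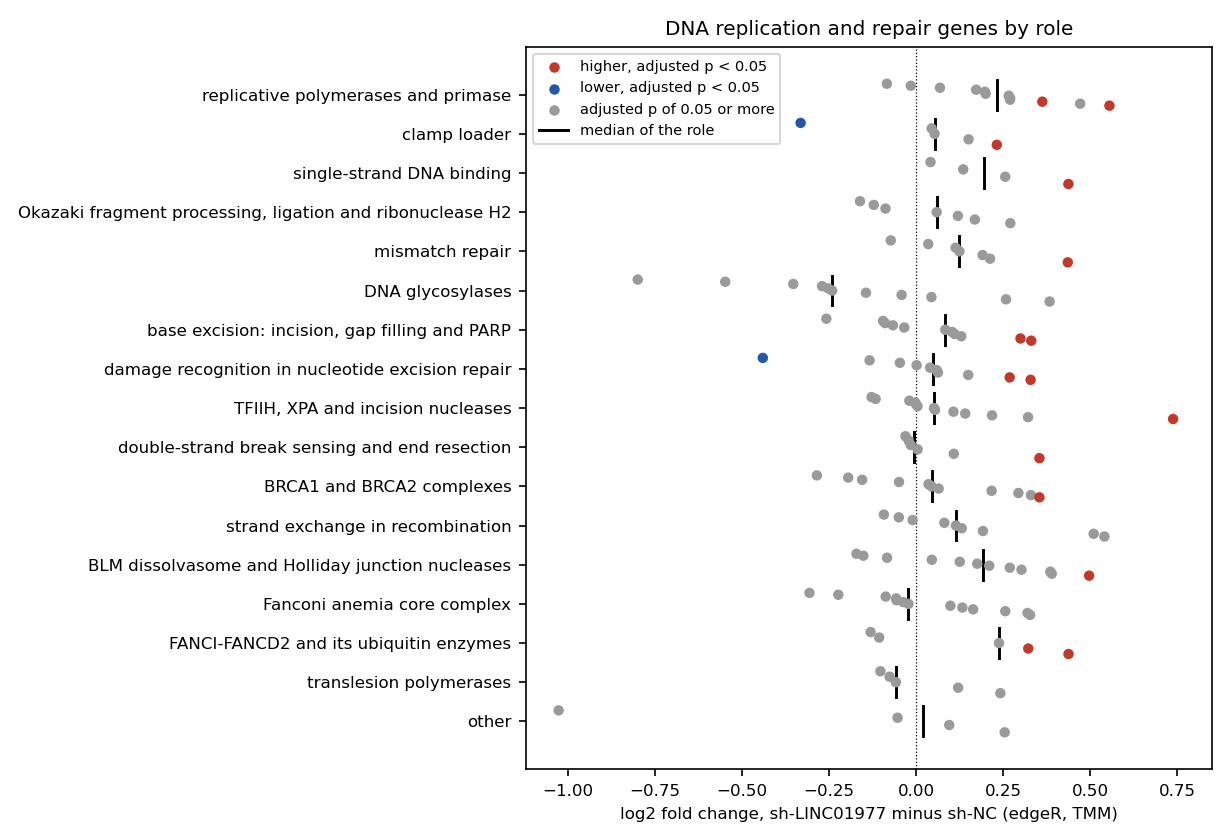
Log2 fold change of each of the 145 tested DNA replication and repair genes (horizontal axis, sh-LINC01977 minus sh-NC), grouped by role on the vertical axis, with red and blue points for genes that rose or fell at an adjusted p under 0.05, grey points for the rest and a black bar for the median of each role. The median was 0.23 for replicative polymerases and primase and -0.24 for DNA glycosylases, and the 2 blue points are RFC1 and DDB1.

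By pathway, the 6 lists, which share members, are to be read beside the 7.05% of all tested genes that rose, the 8.07% that fell and the 15.11% called in either direction. The share called in either direction was below the last of these in base excision repair (9.38%), the Fanconi anemia pathway (9.80%) and homologous recombination (12.8%), and above it in DNA replication (17.9%), nucleotide excision repair (19.5%) and mismatch repair (23.8%). Nucleotide excision repair had 6 higher and 2 lower of 41 tested, homologous recombination 5 higher of 39, and the Fanconi anemia pathway 5 higher of 51, with none lower in the latter pair. DNA replication had 4 higher and 1 lower of 28 tested, mismatch repair 4 higher and 1 lower of 21, and base excision repair 3 higher and none lower of 32. The median log2 fold change was 0.16 for DNA replication, 0.15 for mismatch repair, 0.13 for the Fanconi anemia pathway, 0.11 for homologous recombination, 0.059 for nucleotide excision repair and 0.015 for base excision repair.

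Among the enzymes that synthesise DNA at the fork, 2 of 12 rose, none fell, and 10 had positive values. Counts by role, here and in what follows, stand beside the 7.05% of all tested genes that rose, the 8.07% that fell and the 49.8% with positive values. POLA2, the regulatory B subunit of DNA polymerase alpha (ENSG00000014138, chromosome 11, 65261762 to 65305589, plus strand of GRCh38), was at 21.89, 21.81 and 20.01 CPM (library-scaled counts) in sh-NC libraries and at 31.81, 30.79 and 31.02 CPM in sh-LINC01977 libraries. The groups were far apart and the knockdown libraries were nearly level, a 1.47-fold rise (log2 fold change 0.56, SE 0.069, edgeR adjusted p = 0.00403). The other 3 subunits of the primer-making complex had positive values that did not pass in edgeR, at 0.27 for the catalytic subunit POLA1 (edgeR adjusted p = 0.0560), 0.27 for the primase PRIM1 (0.134) and 0.20 for its partner PRIM2 (0.232). POLA1 passed in 6 of 16 alternatives, with an adjusted p of 0.0235 from DESeq2 and 0.0308 from limma. POLD3, an accessory subunit of DNA polymerase delta that carries a clamp-binding motif, rose from 19.9, 20.55 and 21.1 CPM to 25.02, 26.95 and 27.19 CPM (log2 fold change 0.36, SE 0.072, edgeR adjusted p = 0.0188). Its adjusted p from edgeR was 0.0668 without the second sh-LINC01977 library, 0.0649 without the third, and 0.0626 and 0.0562 without the first and the second sh-NC library. The catalytic subunit POLD1 had a log2 fold change of 0.20, POLD2 of 0.17 and the small subunit POLD4 of 0.47, none past the test. Of the 4 polymerase epsilon genes, the catalytic POLE was at -0.084, POLE2 at -0.015, POLE3 at 0.069 and POLE4 at 0.27. None of these passed in edgeR, and POLE4 did in DESeq2 (adjusted p = 0.0355) and limma (0.0367).

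The clamp loader held a rise and a fall. RFC1, the largest subunit of replication factor C (ENSG00000035928, chromosome 4, 39287456 to 39366375, minus strand), was at 122.9, 123.3 and 127.7 CPM in sh-NC libraries and at 97.39, 100.5 and 99.29 CPM in sh-LINC01977 libraries. Each knockdown library lay well below each control library, a 1.26-fold fall (log2 fold change -0.33, SE 0.044, edgeR adjusted p = 0.00504). RFC3, a small subunit of the same complex (ENSG00000133119, chromosome 13, 33818049 to 33966558, plus strand), rose from 53.91, 55.35 and 52.82 CPM to 60.36, 65.56 and 64.44 CPM (log2 fold change 0.23, SE 0.057, edgeR adjusted p = 0.0386). Of the 15 rises it was the smallest, and it is given here, outside the rule for named genes, to complete the list. Leaving out any library but the first of sh-LINC01977 took its adjusted p from edgeR to between 0.0748 and 0.117. The remaining subunits did not pass, with log2 fold changes of 0.054 for RFC2, 0.045 for RFC4 and 0.15 for RFC5.

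Replication protein A and the processing of lagging-strand fragments followed. RPA2, the middle subunit of replication protein A and a target of checkpoint kinases, was at 46.18, 42.86 and 49.06 CPM in sh-NC libraries and at 56.94, 71.08 and 59.02 CPM in sh-LINC01977 libraries. The second knockdown library was the highest, and the groups did not overlap (log2 fold change 0.44, SE 0.10, edgeR adjusted p = 0.0323). Leaving out any library but the first of sh-LINC01977 took its adjusted p from edgeR to between 0.0554 and 0.0925. The large subunit RPA1 was at 0.14 and the small subunit RPA3 at 0.26 (edgeR adjusted p = 0.0652), neither past the test in edgeR, and RPA3 passed in DESeq2 (adjusted p = 0.0310) and limma (0.0240). None of 7 tested genes of Okazaki fragment processing, ligation and ribonuclease H2 passed in edgeR, while DESeq2 called 1 and limma 2 of them. In edgeR 2 of the 7 had an unadjusted p under 0.05, beside 4099 of the 13452 tested genes. The flap endonuclease FEN1 was at 0.059, the replicative ligase LIG1 at -0.087 and the nuclease and helicase DNA2 at 0.27 (edgeR adjusted p = 0.0519).

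**Figure D2:**
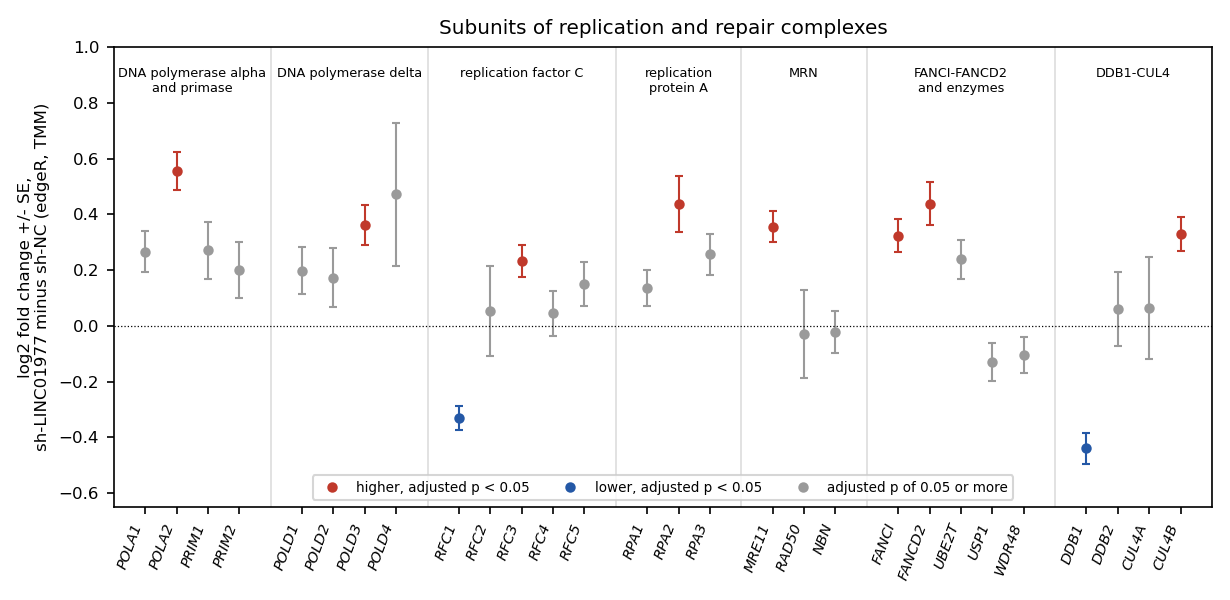
Log2 fold change with its standard error (vertical axis, sh-LINC01977 minus sh-NC, 3 libraries each) for the subunits of 7 complexes or functional units, with red for genes that rose, blue for genes that fell and grey for genes not past an adjusted p of 0.05. POLA2, POLD3, RFC3, RPA2, MRE11, FANCI, FANCD2 and CUL4B stand above 0, RFC1 and DDB1 stand below it, and RAD50 and NBN lie at -0.030 and -0.021.

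In the Fanconi anemia pathway the 5 rises were in RPA2, BRCA1, BLM and the central pair of proteins, FANCD2 and FANCI, and none was in the core complex. FANCD2 (ENSG00000144554, chromosome 3, 10026414 to 10101930, plus strand), which is ubiquitinated when forks meet a crosslink, was at 43.46, 44.08 and 41.4 CPM in sh-NC libraries and at 52.66, 59.8 and 62.23 CPM in sh-LINC01977 libraries. The groups did not overlap, and the rise was 1.35-fold (log2 fold change 0.44, SE 0.077, edgeR adjusted p = 0.0125). FANCI, its binding partner, rose from 69.83, 75.33 and 73.49 CPM to 86.56, 94.94 and 91.9 CPM (log2 fold change 0.32, SE 0.059, edgeR adjusted p = 0.0146). The adjusted p of FANCI from edgeR was 0.0522 without the second and 0.0517 without the third sh-LINC01977 library. Its interval overlaps POLG, and that of FANCD2 overlaps FANCD2OS. The ubiquitin-conjugating enzyme UBE2T had a log2 fold change of 0.24 (adjusted p = 0.0692 from edgeR, 0.0417 from DESeq2 and 0.0273 from limma), the deubiquitinase USP1 of -0.13 and its cofactor WDR48 of -0.11. None of the 13 genes grouped with the core complex, which attaches ubiquitin to the pair, passed with all 6 libraries in edgeR, DESeq2 or limma. The 13 include TELO2 (-0.057), which KEGG lists in the pathway but which is not a subunit of the core complex. In edgeR 3 of the 13 had an unadjusted p under 0.05, beside 4099 of the 13452 tested genes. No difference between the core complex and the pair was tested. The median of the 13 was -0.022, with 6 positive and 7 negative values and FANCA at -0.037.

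Homologous recombination had 5 genes past the test, of which RPA2 and POLD3 are described above. MRE11, the nuclease of the MRE11-RAD50-NBN complex that senses broken ends (ENSG00000020922, chromosome 11, 94415578 to 94493908, minus strand), was at 31.36, 32.87 and 31.33 CPM in sh-NC libraries and at 40.41, 40.45 and 41.31 CPM in sh-LINC01977 libraries. The libraries of each group were close together, and the rise was 1.28-fold (log2 fold change 0.35, SE 0.056, edgeR adjusted p = 0.00883). Its partners RAD50 and NBN were at -0.030 and -0.021, neither past the test. BRCA1, a ubiquitin ligase that promotes end resection and recombination (ENSG00000012048, chromosome 17, 43044295 to 43170245, minus strand), rose from 32.39, 31.39 and 33.23 CPM to 41.08, 42.07 and 40.88 CPM (log2 fold change 0.35, SE 0.056, edgeR adjusted p = 0.00894). Its interval overlaps 6 other listed genes, NBR2 among them. Its obligate partner BARD1 was at 0.33 (edgeR adjusted p = 0.122) and the recombination mediator BRCA2 at -0.049. BLM, the helicase lost in Bloom syndrome, which unwinds recombination intermediates, was at 14.87, 13.27 and 11.72 CPM in sh-NC libraries and 17.5, 20.7 and 18.06 CPM in sh-LINC01977 libraries. Its groups did not overlap, and the rise was 1.41-fold (log2 fold change 0.50, SE 0.12, edgeR adjusted p = 0.0377). BLM kept its call when the first sh-NC library was left out, and without each of the other 5 its adjusted p from edgeR was between 0.0652 and 0.114. RAD54B, a motor protein that acts on recombination intermediates and is named after its values were seen, had a log2 fold change of 0.54 (adjusted p = 0.0974 from edgeR and 0.0436 from DESeq2) and groups that did not overlap.

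Of the 7 tested genes of the mismatch repair role, the exonuclease alone rose and none fell. EXO1, which removes the strand that carries the error, was at 19.72, 18.99 and 17.84 CPM in sh-NC libraries and at 24.8, 26.85 and 24.84 CPM in sh-LINC01977 libraries. It rose 1.35-fold with no overlap between groups (log2 fold change 0.44, SE 0.078, edgeR adjusted p = 0.0134), and without the second sh-LINC01977 library its adjusted p from edgeR was 0.0512. MSH6, a subunit of a mismatch sensor, had a log2 fold change of -0.072 and did not pass.

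Nucleotide excision repair had the largest number of genes past the test and the largest fall. DDB1, the adaptor that holds damage sensors on CUL4 ubiquitin ligases (ENSG00000167986, chromosome 11, 61299451 to 61342596, minus strand), was at 438.8, 386.2 and 410.7 CPM in sh-NC libraries and at 295.7, 314.2 and 301.2 CPM in sh-LINC01977 libraries. The highest knockdown library was below the lowest control library, a 1.36-fold fall (log2 fold change -0.44, SE 0.057, edgeR adjusted p = 0.00443). Its interval overlaps TKFC, a kinase of triose metabolism, which fell as well (log2 fold change -0.73, SE 0.096, edgeR adjusted p = 0.00481), and reads in the shared stretch cannot be told apart unless counting used strand, which is not stated. CUL4B, one of the scaffolds that DDB1 binds, went the other way, from 51.75, 52.25 and 55.55 CPM to 69.3, 67.72 and 63.43 CPM (log2 fold change 0.33, SE 0.061, edgeR adjusted p = 0.0150). Without the first or the second sh-NC library, or the first or the second sh-LINC01977 library, the adjusted p of CUL4B from edgeR was between 0.0506 and 0.0545. The related scaffold CUL4A was at 0.063 and the ultraviolet-damage sensor DDB2 at 0.059, neither past the test.

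XPC, which recognises distorted DNA and opens repair of the whole genome (ENSG00000154767, chromosome 3, 14145147 to 14178783, minus strand), was at 66.42, 64.53 and 68.43 CPM in sh-NC libraries and at 82.87, 77.84 and 79.55 CPM in sh-LINC01977 libraries. It rose 1.21-fold with no overlap (log2 fold change 0.27, SE 0.053, edgeR adjusted p = 0.0185). Its adjusted p from edgeR was between 0.0555 and 0.0613 without the first or the second sh-NC library or the first or the third sh-LINC01977 library. Of the 13 tested genes of the unwinding complex TFIIH, XPA and the incision nucleases, only ERCC5 passed. The helicase ERCC3 was at 0.055, the damage verifier XPA at -0.12 and ERCC1, part of the nuclease that cuts on the 5′ side, at 0.14.

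ERCC5 encodes XPG, the nuclease that cuts on the 3′ side of the lesion (ENSG00000134899, chromosome 13, 102844844 to 102876001, plus strand), and had the largest rise of the set. It was at 22.6, 36.66 and 28.59 CPM in sh-NC libraries and at 48.59, 55.08 and 42.84 CPM in sh-LINC01977 libraries (log2 fold change 0.74, SE 0.18, edgeR adjusted p = 0.0404). The spread within groups was wide, and leaving out any library but the second of sh-NC took its adjusted p from edgeR to between 0.0605 and 0.119. The read-through gene BIVM-ERCC5 spans the whole of ERCC5 and ends at the same base. It was at 15.61, 1.054 and 8.528 CPM in sh-NC libraries and at 2.144, 0.2136 and 10.08 CPM in sh-LINC01977 libraries (log2 fold change -1.03, SE 1.27, edgeR adjusted p = 0.633), so it was low in libraries where ERCC5 was high within both groups. Added together, the pair came to 38.21, 37.71 and 37.12 CPM and to 50.73, 55.29 and 52.92 CPM. The sum, chosen after the values were seen, was 37.7 ± 0.547 CPM in sh-NC and 52.98 ± 2.28 CPM in sh-LINC01977 libraries (SD, n = 3 each), a 1.41-fold difference (p = 0.1 in an exact permutation test with both sides counted, which cannot give less with groups of 3). The spread within groups was narrower for the sum than for ERCC5 alone, and the difference was smaller.

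**Figure D3:**
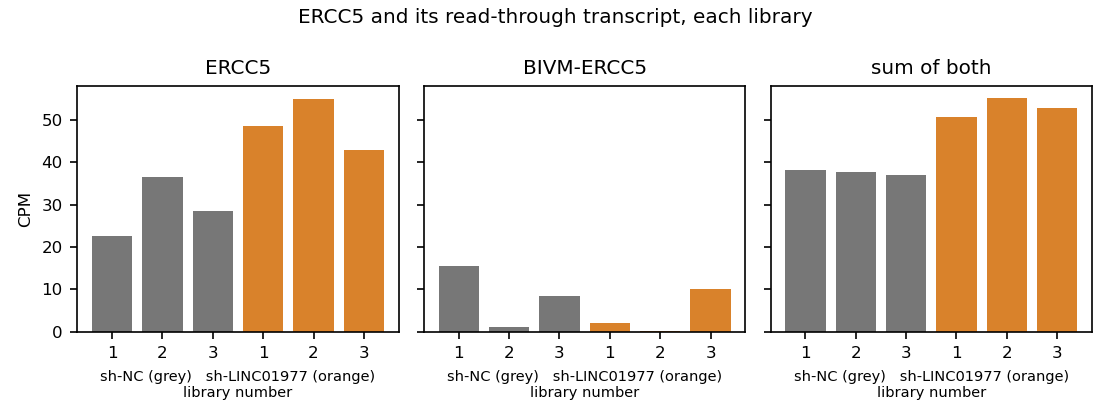
CPM (vertical axis) of ERCC5, of the read-through gene BIVM-ERCC5 and of their sum in each of the 3 sh-NC (grey) and 3 sh-LINC01977 (orange) libraries. ERCC5 ranges from 22.6 to 36.66 CPM in sh-NC libraries, whereas the sum ranges from 37.12 to 38.21 CPM there and from 50.73 to 55.29 CPM in sh-LINC01977 libraries.

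In base excision repair APEX2 and XRCC1 rose beside POLD3, described above. APEX2, an endonuclease that processes sites without a base, was at 50.2, 50.71 and 52.61 CPM in sh-NC libraries and at 62.74, 64.28 and 66.09 CPM in sh-LINC01977 libraries (log2 fold change 0.33, SE 0.052, edgeR adjusted p = 0.00910). XRCC1, the scaffold that gathers the gap-filling and ligating enzymes, rose from 25.05, 23.95 and 24.24 CPM to 28.76, 31.25 and 30.16 CPM (log2 fold change 0.30, SE 0.067, edgeR adjusted p = 0.0283). Both genes had groups that did not overlap. APEX2 kept its call whichever library was left out, whereas the adjusted p of XRCC1 from edgeR was between 0.0637 and 0.0880 without any library but the first of sh-LINC01977. The main endonuclease APEX1 was at -0.089 and the strand-break sensor PARP1 at 0.13 (edgeR adjusted p = 0.0747), neither past the test in edgeR. PARP1 passed in limma (log2 fold change 0.19, adjusted p = 0.0303), where the median of all tested genes was 0.063, but not in DESeq2.

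The DNA glycosylases, which cut out the damaged base in the first step, were the role with the lowest median. None of the 11 passed the test in edgeR or in limma. An unadjusted p under 0.05 in edgeR was found for 4 of the 11, beside 4099 of the 13452 tested genes. DESeq2 called 1 of the 11, TDG, lower, beside 1485 of the 13452 tested genes. Of the 11, 8 had negative values and the median was -0.24. The positive values were 0.38 for NEIL1, 0.26 for MUTYH and 0.044 for MBD4. The uracil glycosylase UNG was at -0.14, OGG1, which removes oxidised guanine, at -0.35 (edgeR adjusted p = 0.155), NTHL1 at -0.25 and NEIL2 at -0.55. TDG, the thymine glycosylase that also takes part in DNA demethylation, had the most negative value of them and is named after its values were seen. It was at 17.54, 29.89 and 12.74 CPM in sh-NC libraries and at 13.45, 10.22 and 10.9 CPM in sh-LINC01977 libraries. The groups overlapped and the second sh-NC library was the highest (log2 fold change -0.80, SE 0.31, edgeR adjusted p = 0.134). The translesion polymerases, which copy past unrepaired damage, had no gene past the test among 5 tested in edgeR, DESeq2 or limma and 0 with an unadjusted p under 0.05 in edgeR, with REV3L at -0.076 and POLH at -0.058. HES1, a transcriptional repressor induced by Notch that KEGG places in the Fanconi anemia list, was at 0.096 (edgeR adjusted p = 0.642).

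**Figure D4:**
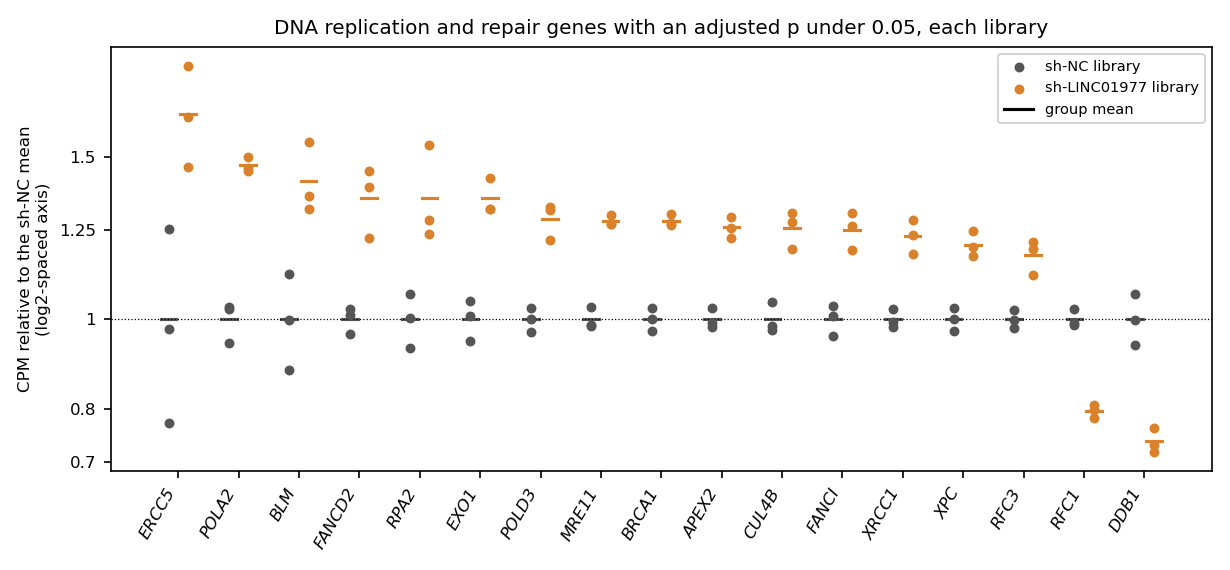
CPM of each library divided by the mean of the 3 sh-NC libraries (vertical axis, spaced on a log2 scale) for the 17 replication and repair genes with an adjusted p under 0.05, with grey points for sh-NC, orange points for sh-LINC01977 and short bars for group means. In all 17 genes the orange and grey points do not overlap, and ERCC5 and BLM have the widest spread among grey points.

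Promoter sequences were read for the genes that moved, because E2F sites mark many replication genes. The windows are those of RefSeq on GRCh38.p14, from 250 bases before to 50 bases after each annotated start, and 130 of the 148 genes had at least 1. An E2F motif, searched as TTTCCCGC or TTTGGCGC on either strand, was in 19 of 183 windows of these genes (10.4%), beside 451 of 12935 windows of all tested genes (3.49%). Of the 12 genes that rose and had an entry, FANCD2, RFC3 and XPC held it, and RFC1 and DDB1 did not. Counted by gene, it was in 18 of 130 replication and repair genes and in 424 of 8995 tested genes with an entry. The stretches around these 3 matches are shown as the promoters in which the motif and a rise occur together, 5′ to 3′ on the gene's strand, with the match in capitals.
FANCD2: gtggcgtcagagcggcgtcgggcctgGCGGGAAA
RFC3: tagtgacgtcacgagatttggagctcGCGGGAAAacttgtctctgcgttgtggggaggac
XPC: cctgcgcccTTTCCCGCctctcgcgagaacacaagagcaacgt
The FANCD2 stretch lies at chr3:10026409-10026442 on the plus strand, and its match, which reads as the motif on the opposite strand, begins at position -2 from the start. The RFC3 stretch lies at chr13:33818068-33818127 on the plus strand, with the match in the same orientation as in FANCD2 and beginning at position -55. The XPC stretch lies at chr3:14178809-14178851 on the minus strand, with the motif on the gene's own strand from position -241. The CCAAT motif, searched on both strands, was in 37.2% of the windows of replication and repair genes and in 35.1% of those of all tested genes. A match describes the letters in the window and not binding of a factor, which was not measured here.

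The replication and repair genes that KEGG also files under Cell cycle, and so outside the set, also held rises. Of these 12, 3 rose (MCM6, MCM7 and ATR), none fell, and the median was 0.11. MCM6, a subunit of the helicase that unwinds the fork, went from 40.07, 37.09 and 38.11 CPM to 63.19, 66.29 and 64.44 CPM (log2 fold change 0.75, SE 0.056, edgeR adjusted p = 0.0010), while PCNA was at -0.090. Across the whole KEGG Cell cycle list, 9 of 114 tested genes rose (7.89%) and 5 fell (4.39%), with a median of 0.039, and the share that rose was close to the 7.05% of all tested genes. Proliferation markers moved in both directions, with TOP2A (0.39, edgeR adjusted p = 0.0016) and BUB1 (0.29, 0.00811) higher, MYBL2 (-0.51, 0.00142) lower and 12 of 15 not past the test, MKI67 at 0.16 among them. A change in the share of cells in S phase and a change in RNA per cell cannot be told apart in these bulk libraries.

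Genes that work beside the set included 1 with a larger change than any in it, RRM2, and counts for these short lists stand beside the same shares of all tested genes (7.05% higher, 8.07% lower). Of 11 genes of nucleotide supply, the 3 ribonucleotide reductase genes, which make the building blocks of DNA, rose. RRM2 had a log2 fold change of 1.28 (edgeR adjusted p = 0.0415), RRM2B, its p53-inducible relative, of 0.71 (0.00248) and the large subunit RRM1 of 0.41 (0.00549), and IMPDH2, which supplies guanine nucleotides, fell (-0.15, 0.0455). RRM2 was at 39.5, 44.5 and 88.0 CPM in sh-NC libraries and at 153.5, 153.1 and 109.7 CPM in sh-LINC01977 libraries, with the third library of each group nearest to the other group, and its interval overlaps AC007240.1. Of 10 genes of non-homologous end joining, which seals breaks without a template, TP53BP1 (0.57, edgeR adjusted p = 0.00708), PRKDC (0.19, 0.0132) and XRCC5 (0.17, 0.0276) rose and NHEJ1 (-0.28, 0.0364) fell. Of 13 p53 targets, RRM2B and XPC rose and none fell. The share of 15.4% was close to the 15.11% of all tested genes called in either direction. CDKN1A, the p53-induced cell cycle inhibitor, was at -0.27 (edgeR adjusted p = 0.0597). XPC, DDB2 and POLH of this list belong to the set itself, and RRM2B is already counted under nucleotide supply. None of 12 fork genes that KEGG does not place in these pathways passed in edgeR, and DESeq2 and limma each called 1. Positive values were found for 10 of the 12, beside 49.8% of all tested genes. In edgeR 4 of the 12 had an unadjusted p under 0.05, beside 4099 of the 13452 tested genes.

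**Figure D5:**
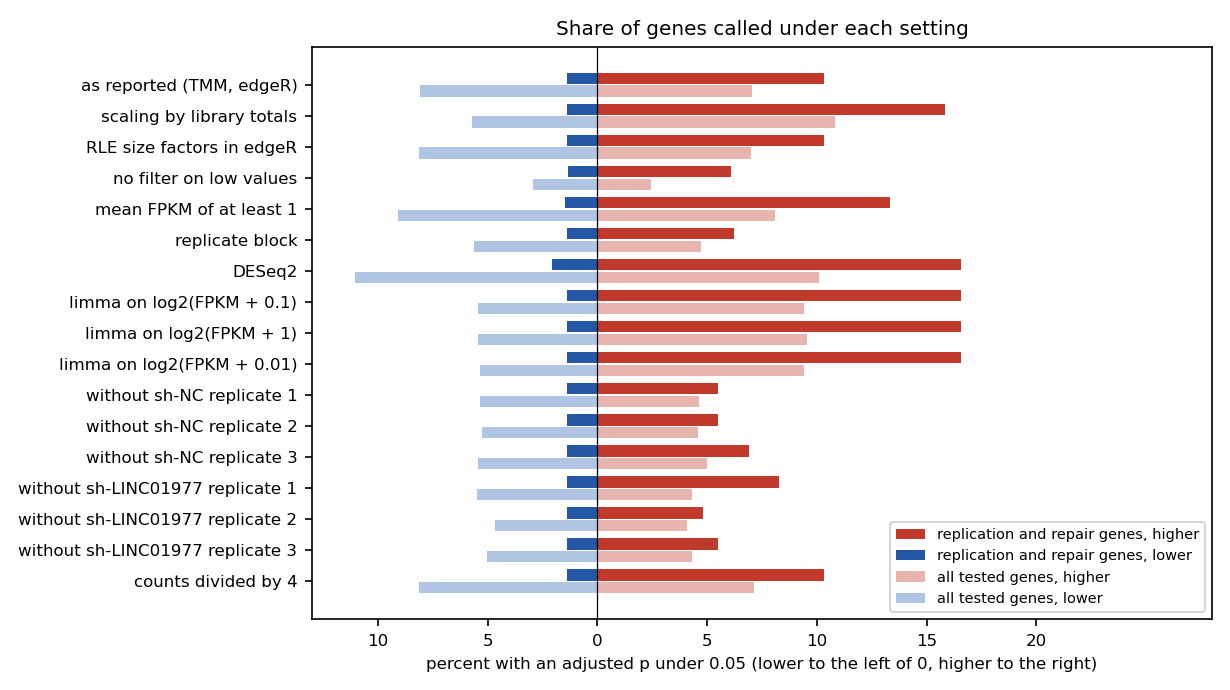
Percent of the replication and repair genes (dark bars) and of all tested genes (pale bars) with an adjusted p under 0.05, lower to the left of 0 and higher to the right, as reported and under 16 other settings on the vertical axis. The share of replication and repair genes that rose exceeds that of all tested genes in each setting, and the share that fell is smaller in each.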

How the data were processed

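RNA from 6 HepG2 libraries, 3 sh-NC and 3 sh-LINC01977, was obtained by the authors with TRIzol, and an Illumina HiSeq instrument was used. The submitters' processing notes name hg38, bcl2fastq 2.0, HISAT2, StringTie, DESeq2 and limma; the counting tool, its annotation and its use of strand are not given in the sources used here. The authors deposited 1 table with raw counts per gene, which are not normalized, and FPKM values, which the authors scaled to transcript length and library total. All 29153 rows name a gene.

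Counts were tested with edgeR 4.0.16 (TMM scaling, quasi-likelihood test, Benjamini-Hochberg adjustment over all tested genes) under R 4.3.3. Tested were 13452 genes whose mean was at least 0.5 FPKM. Total counts ranged from 49929024 to 60441515. CPM are counts over the library's total in tested genes times its TMM factor. Levels between genes are compared only as FPKM. Of the 145 tested replication and repair genes, 100 overlap another listed gene, as do 12 of the 17 past the test. An exact permutation test of each gene's CPM (two-sided) gave 0.1, its smallest value, for all 17. Counts of 4 were more frequent than their neighbours, so a run with counts divided by 4 was added, as was the sum of ERCC5 and BIVM-ERCC5. Genes named were those past the test, at most 12 in each direction by size of change, and 1 to 4 anchor genes per role; RFC3, TDG and other partners were named after their values were seen, and some anchor genes are not reported here. The gene set, lists and roles were chosen with earlier results of these data known, so no gene list was tested as a set. The test was also run on simulated counts, where most small changes, like those reported here, were missed, as were some larger ones. A smaller share of genes was changed there than was called in the data, so this recovery does not measure that of the reported test. Alternatives were scaling by totals or RLE factors, no filter or 1 FPKM, a replicate block, DESeq2 1.42.0, limma 3.58.1 on log2(FPKM + 0.1, 1 or 0.01), and leaving out each library.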

Additional observations from a re-analysis of the deposited data

How the results depend on the processing

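The number of replication and repair genes that rose was 15 as reported, 23 with scaling by library totals, 9 without a filter on low values, 9 with a replicate block, 24 with DESeq2, and 24 with limma at each of the 3 pseudocounts. It ranged from 7 to 12 with 1 library left out. The share of all tested genes that rose moved in the same direction, from 7.05% as reported to 10.8%, 2.44%, 4.73%, 10.1% and between 9.41% and 9.55% in these settings in turn, and to between 4.08% and 4.97% with 1 library left out. RLE factors and counts divided by 4 (a setting added after the data were seen) left the number at 15, and a filter of 1 FPKM gave 18. The number that fell was 2 in every setting but DESeq2, where it was 3 with TDG. DESeq2 also called more of the 13452 tested genes lower, 1485 beside 1085 as reported. All 17 calls remained with library totals, RLE factors, the filter of 1 FPKM, DESeq2, limma and counts divided by 4. With the replicate block 11 remained (BLM, CUL4B, POLD3, RFC3, RPA2 and XRCC1 lost theirs), and without a filter 11 remained (BLM, ERCC5, RFC3, RPA2, XPC and XRCC1 lost theirs). With 1 library left out, 8 to 13 remained. APEX2, BRCA1, DDB1, FANCD2, MRE11, POLA2 and RFC1 were called in all 16 alternatives. Libraries with the same number did not deviate together (correlations of -0.0286, 0.0174 and 0.0552), so the numbers were not taken to pair them.

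Of the genes that did not pass as reported, 14 passed in at least 1 alternative. The share of all tested genes that gained a call in this way was not counted, so the 14 are not read as a result about the set. POLA1 and DNA2 passed in 6 of 16, BABAM1 in 7, POLE4, RPA3, SLX1A and UBE2T in 5, PARP1 in 4 and RNASEH2A in 3. Library totals called all of these but RNASEH2A. FANCG, RAD51B, RAD54B, RMI2 and TDG passed in 1 alternative each.

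Of the named genes that did not pass, some changed sign, all near 0. The log2 fold changes of BRCA2, FANCA and POLH were 0.018, 0.031 and 0.0087 with library totals, 0.012, 0.028 and 0.0060 with limma at a pseudocount of 0.1, 0.0060, 0.024 and 0.0052 at 1, and 0.013, 0.028 and 0.0061 at 0.01. With 1 library left out, values spanned -0.096 to 0.015 for FANCA, -0.23 to 0.033 for APEX1, -0.049 to 0.16 for DDB2, -0.19 to 0.036 for MSH6, -0.14 to 0.055 for REV3L, -0.088 to 0.019 for BRCA2 and -0.0093 to 0.11 for RFC4. POLN, RPA4 and SYCP3 were too shallow to test, and BIVM-ERCC5 is read with an SE of 1.27.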
